A study of Mus musculus with 16 samples.

Results

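The genes for leukocyte integrin chains and for the 3 surface proteins used as sort markers were followed across adipose tissue macrophages of lean and obese mice. They were 10 genes of the 18193 with a probe set that carried their symbol alone: Itgax, Itgam and Adgre1, whose proteins defined the sort, and the integrin chains Itgal, Itgb2, Itga4, Itgb1, Itgb5, Itgb7 and Itga6. They were chosen by symbol with earlier results of these data known, so their calls are no test of the set. Among the probe sets, 24 carried 1 of the 10 symbols. All 10 genes were bright enough to test, among 11908 genes in all, and 20 of the 24 probe sets passed the same filter. The other 4, 1 of Itga4 and 3 of Itgb1, were dimmer than the median of the array on most arrays.

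Macrophages were sorted from the digested perigonadal fat of C57BL/6J mice aged 12 to 14 weeks. Lean mice were Lep +/+, and obese mice were Lep ob/ob, which lack functional leptin in every cell from birth, so that obesity and the lack of leptin cannot be told apart. FB cells carried the macrophage antigen encoded by Adgre1 and CD11b but not CD11c, and FBC cells carried all 3 proteins. RNA was amplified in 2 rounds in every group and hybridised to Affymetrix Mouse Genome 430 2.0 arrays, 4 for each of the groups Lean-FB and Lean-FBC of lean mice and Obese-FB and Obese-FBC of obese mice, with 4 lean and 4 obese mice given as the source of both populations.

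Integrins are receptors made of an alpha and a beta chain that hold a cell to its surroundings or to another cell. On leukocytes the beta chain Itgb2 pairs with Itgal, Itgam or Itgax and binds intercellular adhesion molecules, complement fragments and fibrinogen. Itga4 pairs with Itgb1 or Itgb7 and binds Vcam1, fibronectin and the gut vessel protein Madcam1, which brings monocytes and lymphocytes out of the blood. Itga6 with Itgb1 is a laminin receptor, and Itgb5 pairs with Itgav as a receptor for vitronectin and for Mfge8, a bridge to dying cells. Adgre1 encodes an adhesion G protein-coupled receptor that is a classic surface marker of mouse macrophages. In fat of obese mice, macrophages that carry CD11c are known to become more numerous.

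Levels are quantile-normalized log2(intensity + 16), a scale that understates the change of dim genes, and a level is not compared between genes because each probe set has its own brightness. Changes are log2 differences ± SE from 1 limma model of the 4 groups, with Benjamini-Hochberg adjusted p-values over the 11908 genes and a threshold of 0.05. All 9 measured macrophage markers of 10 listed, among them Cd68, Csf1r and Mertk, lay above the array median on all 16 arrays. Markers of other leukocytes were partly present: 2 of 6 measured eosinophil markers (Epx and Prg2), 3 of 7 T and NK cell markers (Cd3e, Cd3d and Ncr1) and 1 of 5 B cell markers (Pax5) lay below it on all 16, the others on fewer, and no neutrophil or monocyte marker did so on all 16. Array 4 of Lean-FB, Lean-FBC and Obese-FB stood apart: the 3' to 5' signal ratio of the actin control probe sets, which rises when RNA is degraded or short, was 53.3, 48.0 and 45.0 on these 3 and 1.15 to 10.9 on the other 13. On Lean-FB array 4 the summed intensity of 6 eosinophil markers was 6362, where arrays 1 to 3 of that group had 387.8 to 562.2.

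The promoters of 4 members are shown as the start of the account of their genes, because Itgax and Itgam are neighbours on chromosome 7 with different patterns, while Itgb5 and Itga4 each changed in another comparison. Each window is RefSeq sequence of build GRCm38.p6 with 250 bases before and 50 from the transcript start, read 5′ to 3′, and 6 of the 10 members had such a window. Capitals mark matches, on either strand, to the PU.1 core GAGGAA, the AP-1 motif TGANTCA, the GC box GGGCGG, the E box CACGTG of MiT/TFE factors or the Runx core TGTGGT.
Itgax, chr7:128129300-128129599, plus strand: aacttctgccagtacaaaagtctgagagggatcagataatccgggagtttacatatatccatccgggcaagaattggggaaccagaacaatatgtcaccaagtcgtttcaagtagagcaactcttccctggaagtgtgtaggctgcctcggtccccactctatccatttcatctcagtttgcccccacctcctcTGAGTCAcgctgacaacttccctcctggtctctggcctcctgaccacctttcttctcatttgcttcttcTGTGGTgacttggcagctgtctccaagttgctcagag
Itgam, chr7:128062390-128062689, plus strand: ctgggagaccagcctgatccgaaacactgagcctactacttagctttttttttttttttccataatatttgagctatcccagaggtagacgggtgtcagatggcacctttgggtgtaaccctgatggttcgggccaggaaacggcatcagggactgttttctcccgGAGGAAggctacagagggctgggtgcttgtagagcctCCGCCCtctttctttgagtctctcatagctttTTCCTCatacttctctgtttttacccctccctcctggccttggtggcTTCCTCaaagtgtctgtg
Itgb5, chr16:33829415-33829714, plus strand: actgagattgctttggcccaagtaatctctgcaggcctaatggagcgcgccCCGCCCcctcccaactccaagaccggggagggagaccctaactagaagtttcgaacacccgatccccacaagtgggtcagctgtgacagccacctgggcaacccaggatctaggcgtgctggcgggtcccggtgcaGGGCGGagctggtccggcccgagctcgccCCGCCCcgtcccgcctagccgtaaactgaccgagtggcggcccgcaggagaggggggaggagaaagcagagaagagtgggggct
Itga4, chr2:79255176-79255475, plus strand: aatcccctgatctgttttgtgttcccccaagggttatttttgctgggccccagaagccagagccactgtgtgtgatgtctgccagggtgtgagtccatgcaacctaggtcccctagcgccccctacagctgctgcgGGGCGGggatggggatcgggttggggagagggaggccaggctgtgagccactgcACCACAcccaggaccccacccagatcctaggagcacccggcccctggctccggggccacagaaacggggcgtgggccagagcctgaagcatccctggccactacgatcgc
The window of Itgax held 1 AP-1 and 1 Runx match, and that of its neighbour Itgam held 3 PU.1 core matches and 1 GC box. The window of Itgb5 held 3 GC boxes, and that of Itga4 held 1 GC box and 1 Runx match. No E box lay in any of the 4. Over 32851 promoter windows of the same length, 28.3% held the PU.1 core, 7.81% the AP-1 motif, 35.7% the GC box, 7.15% the E box and 16.8% the Runx core, so a match describes the letters and not a bound site.

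The sort markers came first, as a check of the labels. Itgax, which encodes CD11c, had levels of 8.59, 8.74, 8.78 and 9.10 on the Lean-FB arrays and 9.69, 10.21, 10.39 and 10.89 on the Lean-FBC arrays. In obese mice its levels were 8.70, 8.57, 9.31 and 8.55 in FB and 11.48, 10.59, 11.11 and 10.77 in FBC. No FB array reached the level of an FBC array, as the sort on CD11c would give, so this difference checks the labels and is no finding. It was 1.49 ± 0.26 in lean mice (limma, adjusted p = 0.02128) and 2.21 ± 0.26 in obese mice (limma, adjusted p = 0.0001106). The lean value was the only member called among the 23 genes called in that comparison, or 0.193% of those tested. Its call ended with Lean-FB array 1, 2 or 3 left out (adjusted p = 0.0582, 0.0747 and 0.0808), with Lean-FBC array 2, 3 or 4 left out (0.0661, 0.0766 and 0.0714) and without the 3 arrays of high actin ratio (0.0534), while the change stayed between 1.29 and 1.69 over all arrays left out singly. With the array number as a block, 51 genes were called in lean mice, and Itgax kept its call at an adjusted p of 0.0105.

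Itgam, which encodes CD11b, differed little between the groups, all of which had been sorted for its protein. The group means were 7.73 ± 0.16 in FB and 7.89 ± 0.07 in FBC of lean mice, and 7.85 ± 0.52 and 7.79 ± 0.67 in those of obese mice (SD, n = 4). Single arrays ran from 6.84 to 8.39, with the widest spread in Obese-FBC, and the 4 groups overlapped. Its changes in the 4 comparisons ran from -0.10 to 0.17, with 95% intervals between -0.71 and 0.77. Itgam was measured by 1 probe set.

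Adgre1, the third sort marker, was higher in FBC cells of obese mice than in those of lean mice, although both had been sorted for its protein. Its levels were 12.67, 12.63, 12.71 and 11.94 in Lean-FBC and 13.38, 13.69, 13.61 and 13.59 in Obese-FBC. The 4 obese arrays lay close together and above all the lean ones, of which array 4 was low. The change was 1.08 ± 0.24 (limma, adjusted p = 0.006682), 2.12-fold on this scale. In FB cells the levels were 12.95, 12.91, 12.99 and 12.74 in lean mice and 12.93, 13.20, 13.28 and 12.11 in obese mice, which overlapped, with a change of -0.02 ± 0.24. The difference between these 2 obesity effects was 1.10 ± 0.33 and did not pass the threshold (limma, adjusted p = 0.1794). Between Obese-FBC and Obese-FB the arrays did not overlap, and the change of 0.69 ± 0.24 also fell short (limma, adjusted p = 0.08058). It was called with the array number as a block (limma, adjusted p = 0.0495) and as a random block (limma, adjusted p = 0.0361). However, most obese numbers did not pair by their correlations.

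**Figure D1:**
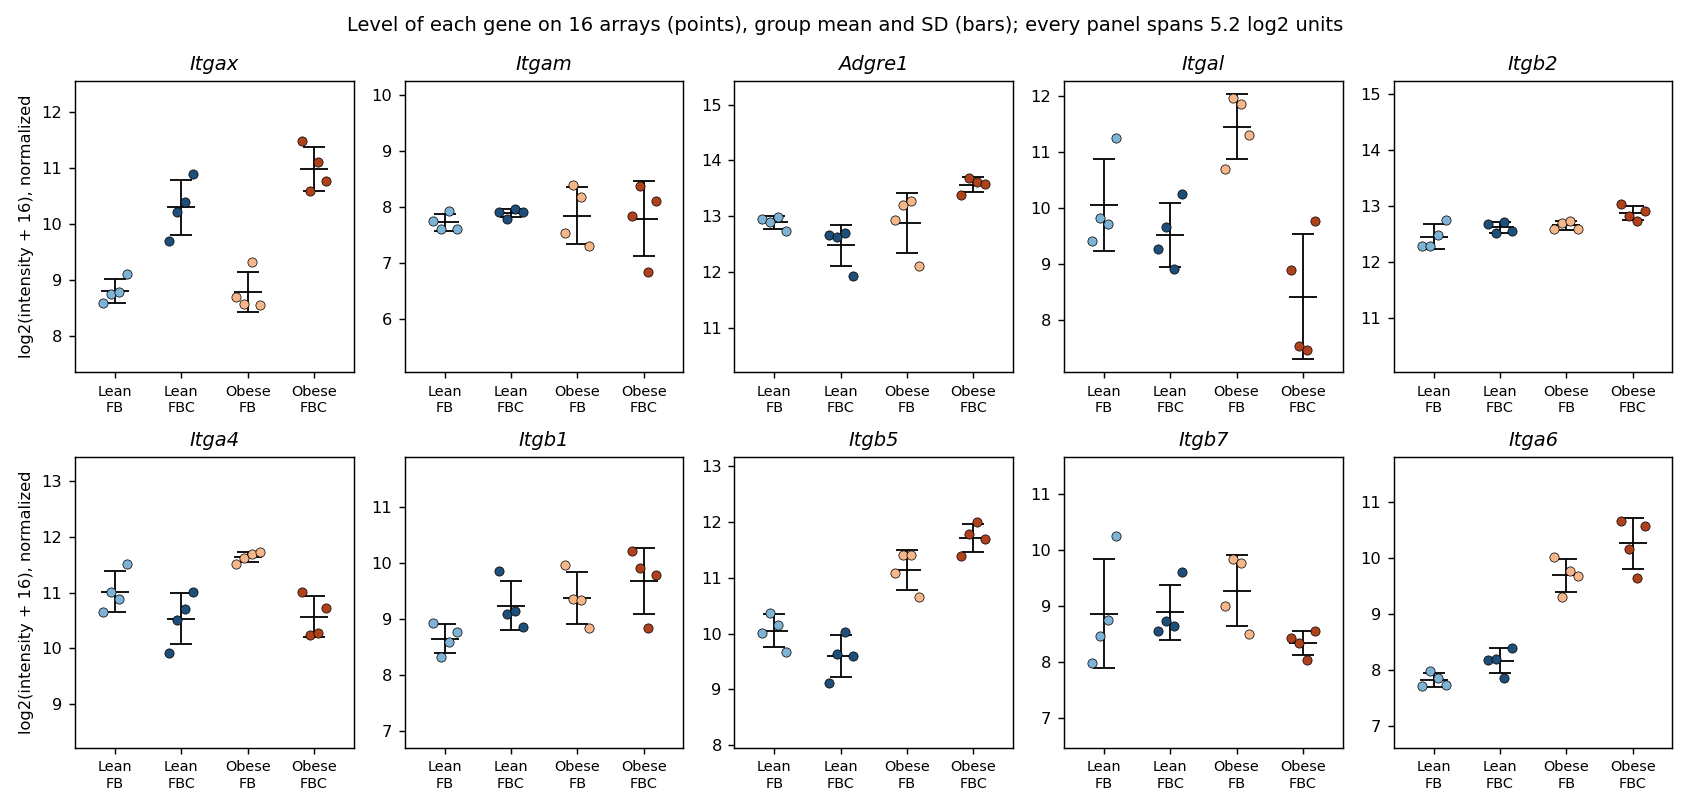
Normalized log2 levels of the 10 genes on each of the 16 arrays (vertical axes, log2(intensity + 16)), by group (horizontal axis), with points for arrays and lines for group means. Itga6 and Itgb5 lie higher in both obese groups, Itgax in both FBC groups, and Itgal falls from 11.45 in Obese-FB to 8.41 in Obese-FBC.

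The question of what obesity did to these genes was asked in each population by itself. In FB cells 2 of the 10 members were called, both higher, where 5.89% of all genes tested were called (216 higher and 485 lower), and the members' median change was 0.52 against 0.03 over all genes. In FBC cells 3 of 10 were called, all higher, where 14.1% of genes were called (967 higher and 708 lower), with a median of 0.35 against 0.08. Itga6 and Itgb5 were called in both, and Adgre1 in FBC. Because earlier results of these data were known when the members were chosen, their counts and medians beside all genes only describe. The same holds for the comparisons below. In bulk RNA of sorted cells, fewer cells of a kind and less RNA per cell cannot be told apart.

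Itga6, the laminin receptor chain, had the largest change of the members in FB. Its FB levels were 7.72, 7.98, 7.86 and 7.73 in lean mice and 10.01, 9.29, 9.77 and 9.67 in obese mice. The lean arrays lay within 0.26 of one another and more than 1 unit below the lowest obese array. The change was 1.87 ± 0.22 (limma, adjusted p = 9.135e-05), 3.64-fold. In FBC cells its levels were 8.18, 8.20, 7.86 and 8.40 in lean mice and 10.66, 10.17, 9.64 and 10.56 in obese mice. Again no array overlapped, and the change was 2.10 ± 0.22 (limma, adjusted p = 9.896e-06), 4.28-fold. The obesity effect in FBC exceeded that in FB by 0.23 ± 0.31, with a 95% interval from -0.42 to 0.89 (limma, adjusted p = 0.7679). FBC cells had higher mean levels than FB cells in both genotypes, by 0.34 ± 0.22 in lean and 0.57 ± 0.22 in obese mice, neither called. Without Obese-FBC array 3 the obese value was 0.78 and called (limma, adjusted p = 0.0326).

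Itgb5, the partner of Itgav, was likewise higher in both obese groups, with a wider gap in FBC. In FB its levels were 10.01, 10.36, 10.16 and 9.67 in lean mice and 11.08, 11.41, 11.40 and 10.66 in obese mice. The groups did not overlap, and the change was 1.09 ± 0.23 (limma, adjusted p = 0.009226), 2.12-fold. In FBC its levels were 9.12, 9.64, 10.03 and 9.60 in lean mice and 11.39, 11.78, 11.99 and 11.69 in obese mice. The lowest obese array stood more than 1 unit above the highest lean array, with a change of 2.11 ± 0.23 (limma, adjusted p = 1.4e-05), 4.33-fold. The obesity effects differed by 1.03 ± 0.32 between FBC and FB, which did not pass the threshold (limma, adjusted p = 0.1963). The width of the gap depended on the probe set: over the other 3 the difference was 1.16, 0.74 and 0.21, none called. The probe set taken for Itgb5 is of the type that may also bind related transcripts, so its other 3 probe sets matter and are given further on.

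Markers of other cells moved in the same 2 comparisons. Of 4 tested adipocyte markers 2 were lower in obese FB, and 1 was lower and 1 higher in obese FBC, with summed intensities of 6 measured markers of 8 listed at 1720 to 5705 in Lean-FB, 231.5 to 337.3 in Obese-FB, 1199 to 6336 in Lean-FBC and 308.9 to 683 in Obese-FBC. Of 8 tested dendritic cell markers 4 were lower in obese FB, and 4 were lower and 1 higher in obese FBC. Of the 6 monocyte markers 1, Chil3, was higher in obese FB (1.74 ± 0.45), and 3 were lower in obese FBC. Of 3 tested T and NK cell markers, Cd2 was lower in both, at -2.86 ± 0.33 in FB and -3.40 ± 0.33 in FBC. In obese FB, 5 of 10 fibroblast markers were lower, as were 1 of 6 mesothelial (Upk3b, -3.31 ± 0.70), 1 of 4 endothelial (Tek, -1.52 ± 0.27) and 1 of 9 macrophage markers (Cd163, -2.11 ± 0.42). In obese FBC, 1 of 10 fibroblast (Fn1, -1.09 ± 0.14), 1 of 6 mesothelial (Lrrn4, -1.04 ± 0.23) and 1 of 3 eosinophil markers (Siglecf, -2.47 ± 0.76) were lower, and 1 of 9 macrophage markers was higher (Fcgr1, 0.96 ± 0.28). The part of these cells in the changes of Itga6, Itgb5 and Adgre1 was not tested.

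Itgb5 pairs with Itgav, and Itgav was called as well. Of 11 tested genes among 18 other integrin chains, 2 were higher and none lower in obese FB, and 1 was higher and 1 lower in obese FBC, with list medians of -0.29 and -0.23. Itgav was higher by 1.37 ± 0.21 in FB (limma, adjusted p = 0.001094) and by 1.08 ± 0.21 in FBC (limma, adjusted p = 0.003167). Of its 4 other probe sets, 4 had the same sign and 1 was called in FB, and 3 had the same sign and 0 were called in FBC. Itga8, whose product pairs with Itgb1, was higher by 1.84 ± 0.26 in obese FB, and Itgb8, a chain that binds latent TGF-beta, changed by -1.27 ± 0.31 in obese FBC with overlapping arrays. Itgb1 itself, the beta chain shared by Itga4, Itga6 and Itga8, had group means of 8.65 ± 0.26 in FB and 9.23 ± 0.43 in FBC of lean mice, and 9.38 ± 0.46 and 9.68 ± 0.59 in those of obese mice (SD, n = 4). The arrays of neighbouring groups in that order overlapped, and no change passed the threshold, the largest being 0.73 ± 0.30 in FB (limma, adjusted p = 0.1726).

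The ligand genes of these receptors, as far as macrophage samples carry them, did not share 1 direction. Of 23 tested ligand genes, 4 were lower and none higher in obese FB, among them Lamb1 (-2.89 ± 0.67) and Lama2 (-2.52 ± 0.65, arrays overlapping), which encode laminin chains, and Thy1 (-1.32 ± 0.35), a surface protein of fibroblasts and lymphocytes. For Lamb1, 1 of its 3 other probe sets had the same sign. In the same comparison 5 of 10 fibroblast markers were lower, with summed intensities of 12880 to 33380 in Lean-FB and 10170 to 13210 in Obese-FB, and their part in the ligand result was not tested. In obese FBC 1 ligand was higher and 2 were lower. Mfge8, the bridge to dying cells bound by the Itgav and Itgb5 pair, was higher by 2.16 ± 0.29 (limma, adjusted p = 0.0001564), while Cdh1 (-1.67 ± 0.28) and the fibronectin gene Fn1 (-1.09 ± 0.14) were lower. The obesity effect on Mfge8 differed between FBC and FB by 2.19 ± 0.41 (limma, adjusted p = 0.04567).

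**Figure D2:**
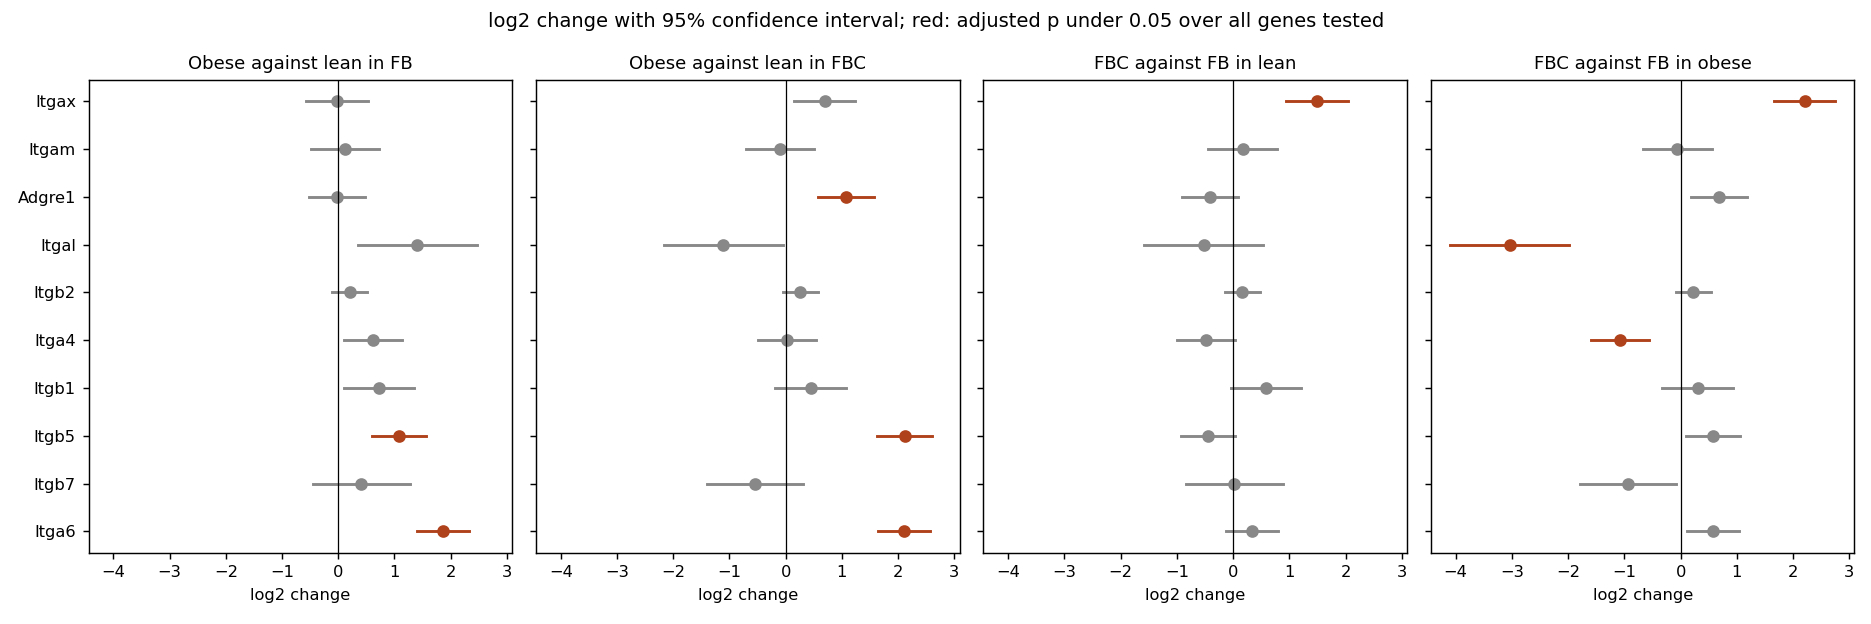
Log2 changes of the 10 genes with their 95% intervals (horizontal axis) in the comparisons of the limma model. Red marks adjusted p-values below 0.05, and grey the others. Itga6 and Itgb5 are to the right of 0 in both obesity comparisons, and Itgal reaches -3.04 between obese FBC and FB.

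The comparison of the populations showed a second set of members. Between Obese-FBC and Obese-FB 3 of 10 members were called, 1 higher (Itgax, the label check) and 2 lower, where 8.39% of all genes were called (609 higher and 390 lower). The members' median change was 0.27 against 0.08 over all genes. This comparison shares the Obese-FB arrays with obese against lean in FB and the Obese-FBC arrays with obese against lean in FBC.

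Itgal, the alpha chain of the receptor LFA-1, was lower in obese FBC than in obese FB. Its levels were 10.69, 11.96, 11.86 and 11.30 in Obese-FB and 8.88, 7.52, 7.46 and 9.76 in Obese-FBC. The highest FBC array lay below the lowest FB array, and the FBC arrays spread over more than 2 units. The change was -3.04 ± 0.50 (limma, adjusted p = 0.001402), with a 95% interval from -4.10 to -1.99. In lean mice the levels were 9.40, 9.82, 9.71 and 11.24 in FB and 9.26, 9.65, 8.91 and 10.25 in FBC. These overlapped, array 4 was the highest in both, and the change was -0.52 ± 0.50 (limma, adjusted p = 0.8518). The interaction, the obesity effect in FBC minus that in FB, was -2.52 ± 0.71 and was not called (limma, adjusted p = 0.1535), but it was called without Lean-FB array 4, at -2.91 (limma, adjusted p = 0.0303).

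For Itgal the obesity comparison turned on 1 array in each population. Its mean was 1.41 ± 0.50 higher in obese than in lean FB, with overlapping arrays and no call (limma, adjusted p = 0.1105). Lean-FB array 4, at 11.24, lay within the obese range and was an array of high actin ratio and of high eosinophil markers. Without that array the change was 1.80 (limma, adjusted p = 0.0222), and without the 3 arrays of high actin ratio it was 1.83 (limma, adjusted p = 0.0228). In FBC the sign was the other way, at -1.11 ± 0.50, and not called (limma, adjusted p = 0.1508), but it was called without Obese-FBC array 4, at -1.56 (limma, adjusted p = 0.0448).

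Itga4, the alpha chain that binds Vcam1 and fibronectin, moved as Itgal did with a smaller size. Its levels were 11.51, 11.62, 11.69 and 11.73 in Obese-FB and 11.001, 10.25, 10.28 and 10.73 in Obese-FBC. The 4 Obese-FB arrays lay within 0.22 of one another and all above the FBC arrays. The change was -1.07 ± 0.24 (limma, adjusted p = 0.01186). In lean mice its levels were 10.65, 11.01, 10.88 and 11.52 in FB and 9.92, 10.50, 10.71 and 11.01 in FBC, which overlapped, with a change of -0.48 ± 0.24 (limma, adjusted p = 0.641). Obese FB exceeded lean FB by 0.62 ± 0.24 without a call (limma, adjusted p = 0.1478), and with one when Lean-FB array 4 was left out, at 0.79 (limma, adjusted p = 0.0433). In FBC the change with obesity was 0.03 ± 0.24.

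Itgb7, the beta chain that joins Itga4 in the receptor for Madcam1, had levels of 9.01, 9.83, 9.76 and 8.49 in Obese-FB and 8.43, 8.34, 8.03 and 8.54 in Obese-FBC. Its levels in lean mice were 7.99, 8.46, 8.74 and 10.25 in FB and 8.55, 8.73, 8.64 and 9.61 in FBC. Array 4 was the highest of both lean groups and the lowest of Obese-FB, and these are the 3 arrays of high actin ratio. No change was called with all arrays, the largest being -0.94 ± 0.41 between obese FBC and FB (limma, adjusted p = 0.1606). Without the 3 arrays it was called in 3 comparisons: obese against lean in FB at 1.12 (limma, adjusted p = 0.00536), obese FBC against FB at -1.18 (limma, adjusted p = 0.00398) and the interaction at -1.42 (limma, adjusted p = 0.0375).

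Itgb2, the beta chain that Itgal, Itgam and Itgax need to reach the surface, differed less than any of the alpha chains that were called. Its group means were 12.45 ± 0.22 in FB and 12.61 ± 0.09 in FBC of lean mice, and 12.65 ± 0.08 and 12.87 ± 0.13 in those of obese mice (SD, n = 4). The 4 Obese-FBC arrays lay above those of Lean-FBC and of Obese-FB, by 0.26 ± 0.15 and 0.22 ± 0.15 on average, and neither change was called (limma, adjusted p = 0.2606 and 0.3664). Both signs turned without quantile normalization, at -0.03 and -0.09.

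Most marker genes of monocytes fell with Itgal and Itga4 from obese FB to obese FBC, but not from array to array within the FBC groups. Of 6 measured monocyte markers of 8 listed, 5 were lower in obese FBC than in obese FB, with a median change of -2.63. They included Vcan (-4.01 ± 0.33), a matrix proteoglycan, Plac8 (-3.42 ± 0.54) and Chil3 (-2.88 ± 0.45), a chitinase-like secreted protein. Their summed intensity was 32830 to 42970 in Obese-FB and 9530 to 16080 in Obese-FBC, and 22560 to 39080 in Lean-FB, where array 4 gave the highest sum, against 17060 to 21630 in Lean-FBC. None of the 6 was below the array median on all arrays. Within Obese-FBC, arrays 2 and 3 had the highest sums, 15740 and 16080, and the lowest Itgal (7.52 and 7.46) and Itga4 (10.25 and 10.28). Over Lean-FBC arrays 1 to 4 the sums fell from 21630 to 17060 as Itga4 rose from 9.92 to 11.01. In each FB group the array of highest sum had the highest Itgal. Of 6 tested neutrophil markers, 3 were lower in the same comparison with overlapping arrays in each, among them S100a9 (-2.68 ± 0.55), and summed intensities were 787.9 to 3244 in Obese-FB and 345.1 to 1346 in Obese-FBC. Of 8 tested dendritic cell markers 4 were higher, Fscn1 most (3.27 ± 0.29), with sums of 10200 to 11690 in Obese-FB and 12490 to 15070 in Obese-FBC. For Fscn1, 2 of its 3 other probe sets had the same sign, and 0 were called. In lean mice Ccr7 (2.07 ± 0.38) and Fscn1 (2.06 ± 0.29) were higher in FBC than in FB, and Vcan (-1.73 ± 0.33) and S100a8 (-3.115 ± 0.589) lower. Of the other probe sets, 1 of 3 of Fscn1 and 4 of 7 of Vcan had the same sign in lean mice, and 0 were called. The dendritic cell sums there were 12230 to 13830 in Lean-FB and 16130 to 21520 in Lean-FBC. The part of these cells in the changes of Itgal, Itga4 and Itgax was not tested.

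**Figure D3:**
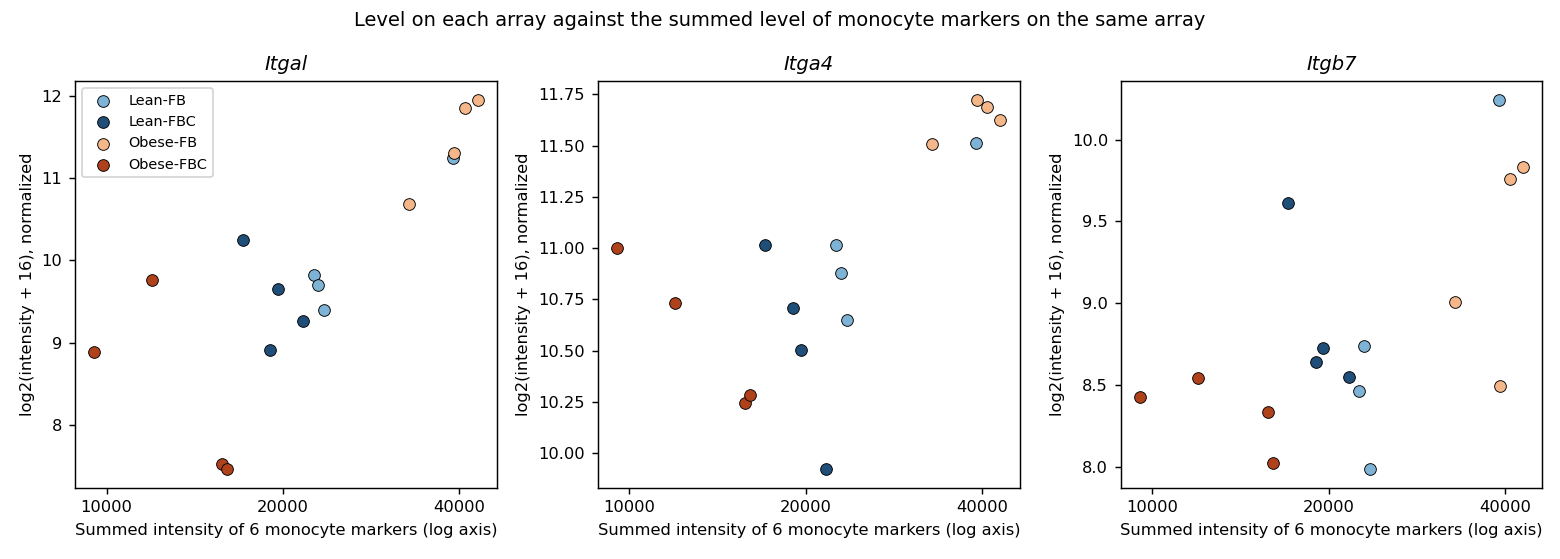
Normalized log2 levels of Itgal, Itga4 and Itgb7 (vertical axes) against the summed intensity of 6 monocyte markers (horizontal axis, log scale). Each of the 16 arrays is 1 point, coloured by group. The Obese-FBC arrays have the lowest marker sums, 9530 to 16080, and Obese-FB the sums from 32830 to 42970 with the highest group mean of each gene. Within Obese-FBC the arrays of highest sum, 15740 and 16080, have the lowest Itgal and Itga4.

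Genes that act on integrins inside the cell were read from lists. Of 22 tested genes of integrin activation, 1 was higher and 1 lower in obese FB, 1 was higher and 3 were lower in obese FBC, and 5 were lower and none higher in obese FBC against FB, with list medians of 0.14, -0.09 and -0.08. The lower genes in the last comparison included Rassf5 (-1.16 ± 0.25), the Rap1 effector RAPL that activates LFA-1 in lymphocytes, and Rap1gap2 (-2.35 ± 0.34), which switches Rap1 off. Tln2, a talin that links beta chains to actin, was lower in obese FB (-1.24 ± 0.29) and obese FBC (-1.18 ± 0.29), with 1 and none of its 2 other probe sets of the same sign.

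Among 26 tested genes of integrin signalling and the adhesion complex, 2 were higher in obese FB, 4 were higher and 1 lower in obese FBC, and 3 were higher and 2 lower in obese FBC against FB. Actn1, the actin crosslinker alpha-actinin, was higher in all 3, by 1.69 ± 0.29, 2.27 ± 0.29 and 1.71 ± 0.29. Lims2, a partner of integrin-linked kinase, was higher by 1.67 ± 0.39 in obese FBC and by 2.31 ± 0.39 between obese FBC and FB, and its obesity effects differed by 2.93 ± 0.55 (limma, adjusted p = 0.0454). Fgr, a Src family kinase downstream of Itgb2 in myeloid cells, was lower between obese FBC and FB (-1.96 ± 0.31). The list medians of 0.17, 0.09 and 0.09 were close to the medians over all genes, 0.03, 0.08 and 0.08.

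Of 13 tested integrin partners and tetraspanins, the tetraspanin Cd81 was lower in obese FB (-1.37 ± 0.27) and none was higher. In obese FBC Cd151, a tetraspanin that binds laminin receptors such as those with Itga6, was higher (0.78 ± 0.24), as was Sirpa (0.87 ± 0.25), the receptor of Cd47. Cd151 was higher between obese FBC and FB too (0.86 ± 0.24). Among 4 relatives and ligands of Adgre1's family, Adgre4 was lower in obese FBC than in obese FB (-2.10 ± 0.30), opposite in sign to Adgre1. Cd55, the ligand of Adgre5, was lower in obese FB (-1.81 ± 0.32) and in obese FBC (-1.04 ± 0.32, arrays overlapping).

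The interaction between obesity and population called none of the 10 members, where 0.16% of genes (19) were called by limma, and 3 members had an unadjusted p below 0.05, as did 1576 of all genes. These 3 were Itgal, Adgre1 and Itgb5, whose differences are given above. In simulated data the interaction recovered 23 of 100 changes of 1 log2 unit and 82 of 100 changes of 2. The lack of a call therefore does not show that the obesity effects were equal. Itgax had a difference of 0.71 ± 0.37 (limma, adjusted p = 0.4097), its FBC mean being 0.69 ± 0.26 higher and its FB mean -0.02 ± 0.26 different in obese mice. The FBC change of Itgax was not called (limma, adjusted p = 0.0832), and without the 3 arrays of high actin ratio it was 0.88 (limma, adjusted p = 0.019), and without Lean-FBC array 4 alone 0.89 (limma, adjusted p = 0.0301). Without those arrays the members called were 5 in obese FB, 4 in obese FBC, none in lean FBC against FB, 4 in obese FBC against FB and 1 in the interaction, of 2014, 2537, 12, 1359 and 295 genes.

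The members with several probe sets show how far these results hold beyond the probe set chosen. Fitted with all 34945 single-symbol probe sets and no filter on dim ones, 4 of the 24 member probe sets were called in obese FB, all higher, where 2.1% of probe sets were called. In obese FBC 7 of 24 were called, all higher, against 5.95%. None was called in lean FBC against FB, against 0.0372%, so that Itgax lost its lean call there. In that comparison 2 of the 24, 1 of the label check Itgax and 1 of Itga6, had an unadjusted limma p below 0.05. In the gene fit 976 of 11908 genes did, so this count only describes. Between obese FBC and FB 5 were called, 1 higher and 4 lower, against 3.14%. Both Itga6 probe sets were called with obesity, at 2.33 and 1.87 in FB and at 2.56 and 2.10 in FBC. All 4 Itgb5 probe sets were called in FBC, from 1.43 to 2.35, and 2 of 4 in FB, where all 4 changes lay between 1.09 and 1.28. The 2 Itgb5 probe sets that are not of the cross-binding type were called in FBC, at 2.35 and 2.02, but not in FB, at 1.195 and 1.28 (limma, adjusted p = 0.07626 and 0.05398), so both Itgb5 calls in FB came from the cross-binding type. Both Itgal probe sets were lower in obese FBC than in obese FB, at -1.75 and -3.04, as were 2 of 5 of Itga4, at -1.07 and -1.35. The other 3 Itga4 probe sets were at -1.72, -0.79 and -0.10 there without a call. None of the 6 Itgb1 probe sets was called in any comparison.

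**Figure D4:**
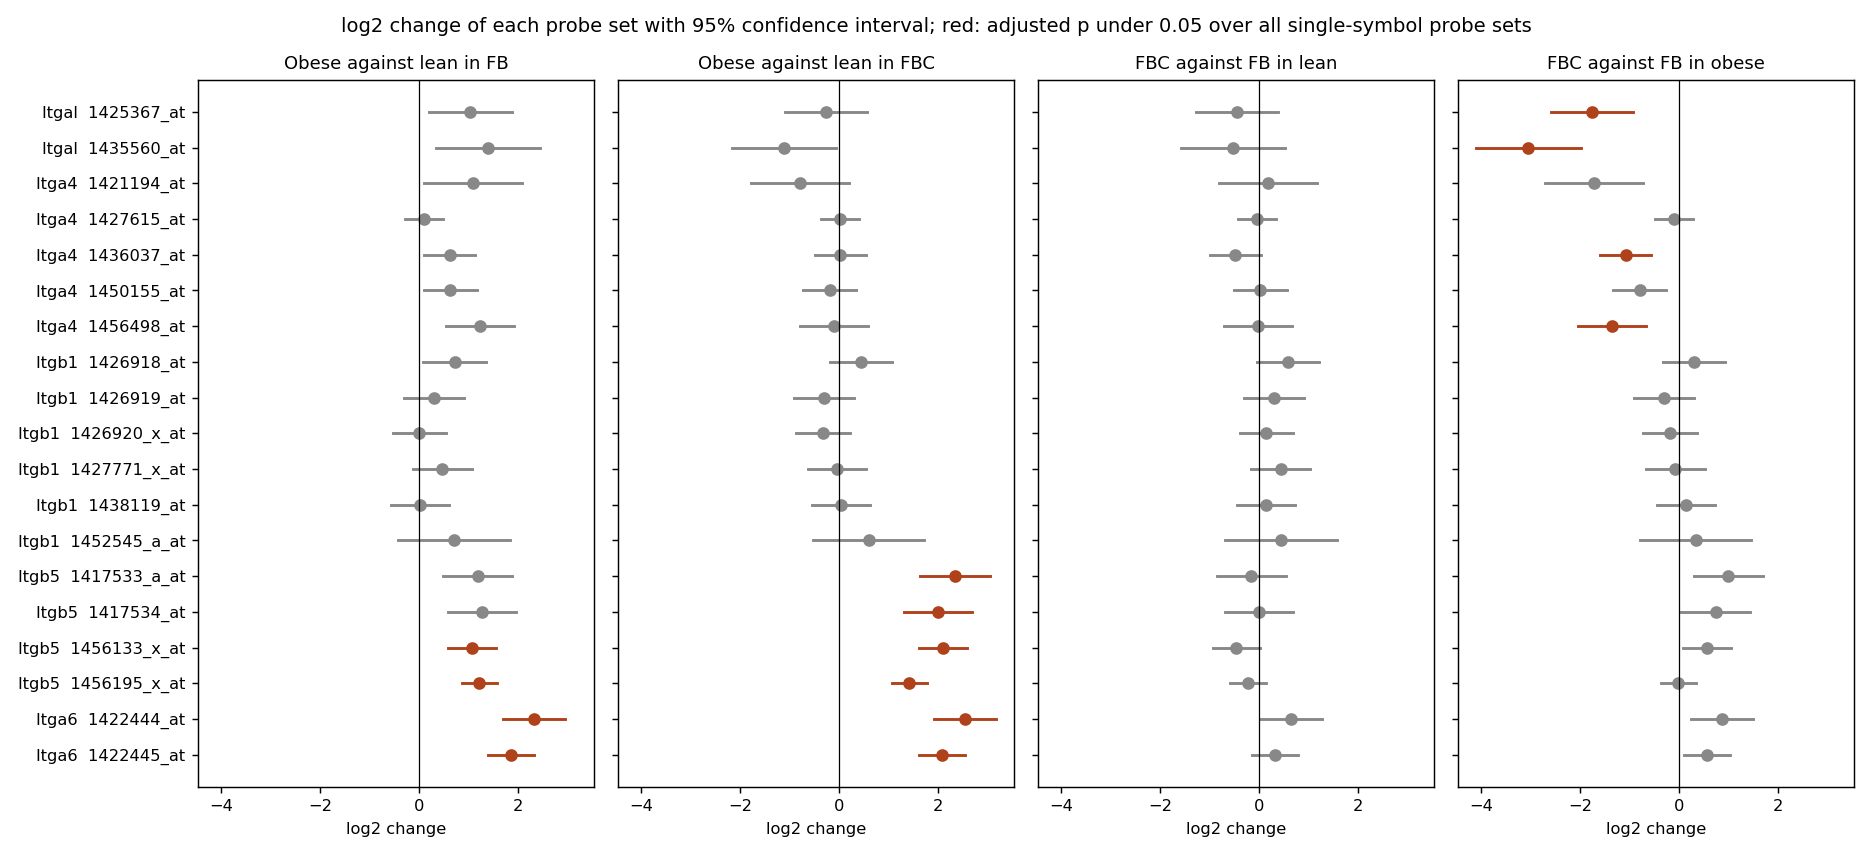
Log2 changes (horizontal axis) of the 19 probe sets of the 5 members with several, by gene and comparison. They are from the fit over all single-symbol probe sets, with red for calls and grey for the others. The Itgb5 and Itga6 probe sets lie above 0 in both obesity comparisons, and the Itgal probe sets lie below 0 between obese FBC and FB.

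The members fell into patterns that were shared with named genes across the 16 arrays. As a description over arrays that share their groups, Itgal and Itga4 correlated at r = 0.856 and Itgb5 and Itga6 at r = 0.844, while Itgal and Itga6 correlated at -0.0705. Among all genes tested, those most like Itgal were Trem1 (0.953), a receptor that amplifies inflammation, Ceacam1 (0.952), an adhesion molecule, and Arg2 (0.950), a mitochondrial arginase. Between obese FBC and FB these 3 changed by -3.23 ± 0.54, -3.31 ± 0.42 and -2.42 ± 0.33, beside -3.04 for Itgal. Most like Itga4 were Plac8 (0.937), Adgre4 (0.934) and Nxpe4 (0.923), of which Plac8 is a monocyte marker in the list above. Most like Itga6 were Eya4 (0.959), Sel1l3 (0.957) and the orphan receptor gene Gpr176 (0.953).

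Those like Itgb5 were Rbbp5 (0.938), a subunit of histone methyltransferase complexes, Washc5 (0.933), a subunit of the endosomal WASH complex, and Hgsnat (0.931), a lysosomal enzyme. In obese FBC Hgsnat was higher by 1.71 ± 0.17, and Rbbp5 and Washc5 by less, 0.69 ± 0.14 and 0.63 ± 0.13, beside 2.11 for Itgb5. Adgre1 was most like Plxnb2 (0.961), a semaphorin receptor, Slc12a7 (0.932), a potassium chloride cotransporter, and Snapin (0.931). Itgax, whose pattern follows the sort, was most like F7 (0.922), coagulation factor VII, Il7r (0.917), the interleukin receptor chain, Vsig8 (0.913), Cd200r1 (0.908), an inhibitory receptor, and Mreg (0.905). F7, Il7r and Vsig8 were higher in obese FBC than in lean FBC, by 1.32 ± 0.33, 1.26 ± 0.32 and 1.04 ± 0.31. Cd200r1 and Mreg were not called there, at 0.19 ± 0.23 and 0.12 ± 0.30. Itgax, also not called, was at 0.69 ± 0.26.

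Over the 4 comparisons of pairs of groups, 6 of the 10 members were called at least once, in 9 calls. The groups did not overlap in any of the 9. The calls of Itgax between FBC and FB are among them and only check the labels. Of all genes tested, 5.89%, 14.1%, 0.193% and 8.39% were called in obese FB, obese FBC, lean FBC against FB and obese FBC against FB. The shares called at least once, or called without overlap, were not counted over all genes, so these counts only describe. Itgam, Itgb2, Itgb1 and Itgb7 had no call. Called or not, members without overlap were 2 in obese FB, 5 in obese FBC, 2 in lean FBC against FB and 5 in obese FBC against FB. The counts of FBC against FB include Itgax. Over all genes tested, the shares without overlap were 11.8%, 20%, 5.63% and 17.7% in that order. The group order of Itga6 was Obese-FBC, Obese-FB, Lean-FBC and Lean-FB, and that of Itgb5 was Obese-FBC, Obese-FB, Lean-FB and Lean-FBC, with no call between the lower 2 groups of each or between the upper 2. Another Itgb5 probe set had nearly equal means in Obese-FBC and Obese-FB, 11.19 and 11.20. For Itgal the order was Obese-FB, Lean-FB, Lean-FBC and Obese-FBC, with no call between neighbours in that order.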

How the data were processed

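The authors deposited 1 linear intensity per probe set and array. Affymetrix Expression Console is the tool named in the submitters' processing notes, and the 2% trimmed mean was 250 on each of the 16 arrays. Not given in the sources used here are its version, the summarization method and the build. Values were taken as log2(intensity + 16) and quantile-normalized, since raw medians ran from 5.69 to 6.06. Of 45101 probe sets, 64 were controls, 34945 carried 1 symbol in the platform annotation, 932 several and 9160 none, and the last 2 kinds were not used. Gene IDs of 34741 matched a RefSeq table, which renamed 0 of them. The value of each of 18193 genes is its brightest single-symbol probe set, and the 11908 above the array median on at least 4 arrays were tested.

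limma (lmFit and eBayes, 12 residual and 16.53 total degrees of freedom) gave 5 comparisons, with a threshold of 0.05 on Benjamini-Hochberg adjusted p-values, and was tested on simulated data. It ran in R 4.3.3 with limma 3.58.1, and figures came from Python 3.11.15 with pandas 2.3.3 and matplotlib 3.10.9. The members and lists were chosen with earlier results of these data known. Named genes are all members, per list and comparison up to 3 called genes of largest change, and the 3 genes (5 for Itgax) most correlated with each called member.

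Same-numbered lean arrays had residual correlations of 0.135, 0.231, 0.299 and 0.595, all above the limit of 0.1 for pairing, and the obese ones 0.31, 0.033, -0.03 and -0.137. By highest correlation, lean FB arrays 2, 3 and 4 matched the FBC array of their own number, but lean FB array 1 matched FBC array 3. Obese FB array 1 matched its own number, and obese FB arrays 2, 3 and 4 did not. The value of 0.595 was between the lean arrays 4, both of high actin ratio, whose part in it was not tested. The labels do not say which arrays share a mouse. Precision is limited by the number of arrays, and a p-value here measures array-to-array spread. No 2 arrays held identical values. The alternatives were no filter, probe sets averaged by gene, probe sets taken singly, no quantile normalization, a pseudocount of 1, only the groups compared, array weights, the 3 arrays of high actin ratio left out, the log2 actin ratio as a covariate, the array number as a replicate block or as a random one, and each array left out.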

Additional observations from a re-analysis of the deposited data

Results flagged for a closer look

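Of 96 sets of 4 arrays, 1 for each member probe set in each group, 5 held an array far from the other 3 by Dixon's criterion, which chance alone gives in about 1 of 20. Adgre1 was low on Lean-FBC array 4, at 11.94 against 12.63 to 12.71. Itgb7 was high on the same array, at 9.613 against 8.549 to 8.726. A dim Itgb1 probe set was high on Lean-FB array 4, at 6.541 against 5.803 to 5.848, and on Obese-FB array 3, at 6.723 against 6.366 to 6.422. An Itga4 probe set was low on Obese-FB array 1, at 8.287 against 8.969 to 9.062. Lean-FBC array 4 and Lean-FB array 4 had high actin ratios, and the part of this in the values was not tested.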

How the results depend on the processing

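Of the 9 member calls, 8 were kept under every alternative run and none changed sign; Itgax in lean mice lost its call in the fits named in the report and with only the groups compared (adjusted p = 0.0953), where 9 genes and 0 members were called. Of the single member changes recomputed, 1246 kept direction and call, 30 gained a call, 8 lost one and 36, none of them called, changed sign. In the order obese FB, obese FBC, lean, obese FBC against FB and interaction, array weights called 3987, 4115, 1324, 2202 and 1536 genes and 7, 6, 2, 5 and 4 members. Leaving out the 3 arrays of high actin ratio called 2014, 2537, 12, 1359 and 295 genes and 5, 4, 0, 4 and 1 members. Leaving out single arrays gave 329 to 1504, 1036 to 2013, 8 to 34, 546 to 1324 and 2 to 349 genes and 2 to 4, 3 to 4, 0 to 1, 3 to 4 and 0 to 1 members. Without Lean-FB array 4 the counts were 1504 genes and 4 members in obese FB, and 349 genes and 1 member in the interaction. The replicate block called 51, 1655 and 230 genes and 1, 4 and 0 members in lean, obese FBC against FB and the interaction. The fourth was Adgre1, at 0.69 (limma, adjusted p = 0.0495), and most obese numbers do not pair by the correlations. The array number as a random block (correlation 0.21) called 74, 1746 and 158 genes and 1, 4 and 0 members there, the fourth again Adgre1 (limma, adjusted p = 0.0361). The actin covariate called 1159 genes in obese FB and 62 in lean. The interaction called 3 genes with no filter, 4 with a pseudocount of 1 and 9 with probe sets singly.

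Sign changes of uncalled values were as follows. Without quantile normalization, which moved the median of all genes by 0.101 in the interaction, Adgre1 in FB was 0.016, Itgam and Itgb2 in FBC 0.010 and -0.031, Itgb7 in lean -0.0001679, Itgam and Itgb2 between obese populations 0.106 and -0.086, and Itgb2 in the interaction -0.277. With array weights Itgax and Adgre1 in FB were 0.168 and 0.186, and Itgam in FBC 0.075. Without the 3 arrays, Itgax and Adgre1 in FB were 0.157 and 0.182, and Itgb2 in the interaction -0.083. With the mean of probe sets, Itga4 in FBC was -0.203. Over single arrays left out, FB gave -0.195 to 0.080 for Itgax, -0.057 to 0.305 for Itgam and -0.148 to 0.240 for Adgre1, and FBC gave -0.295 to 0.218 for Itgam and -0.175 to 0.187 for Itga4. Lean gave -0.268 to 0.485 for Itgb7, obese FBC against FB -0.250 to 0.262 for Itgam, and the interaction -0.417 to 0.095 for Itgam, -0.042 to 0.112 for Itgb2 and -0.453 to 0.0038 for Itgb1. The cause was not tested. Dim probe sets near background limit the size of change that can be read.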
